A study of Mus musculus with 12 samples.

Results

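The genes described here encode the subunits of the GABA-A, glycine, ionotropic glutamate and nicotinic acetylcholine receptors, the channels that open when GABA, glycine, glutamate or acetylcholine binds. They were chosen by a rule on gene symbols, set with earlier results of these data known, and 58 of the 22609 genes in the count tables were members. RNA had been sequenced from fractions of dorsal root ganglia (DRG), which serve the trunk and limbs, and of trigeminal ganglia (TG), which serve the face and head. There were 12 libraries, with 3 of each sex from each ganglion. All mice were naive, that is untreated, of strain C57BL and 3 to 4 months old per the labels, while the methods of the study name the substrain C57BL/6J, give a younger age and state that the females were in the estrous phase. No group carried a transgene or a treatment. The fractions were made from dissociated ganglia on a Percoll density gradient, which enriches neurons but leaves other cells in part. The labels do not say whether a library held a single mouse or several, so p-values measure the spread between these libraries, which may be partly technical.

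Receptors of the GABA-A and nicotinic families are pentamers and belong, with the glycine receptors, to the Cys-loop family. The GABA-A and glycine receptors pass chloride and the nicotinic receptors pass cations. The ionotropic glutamate receptors are cation-selective tetramers of the AMPA, kainate, delta and NMDA classes. Sensory neurons of DRG and TG keep a high internal chloride level through the cotransporter encoded by Slc12a2, so that GABA depolarizes them, and GABA acting on their central terminals underlies presynaptic inhibition. Their own transmitter is glutamate, and kainate receptors with the subunit encoded by Grik1 are a known feature of small-diameter sensory neurons.

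Total counts in genes ran from 7511765 to 15396090 per library, and 3 counts, taken as the smallest level a library can show, corresponded to 0.207 to 0.357 CPM. CPM here is the usual library-relative unit, the count of a gene over the TMM-scaled total of its library, and a level per kilobase is that CPM divided by the exon length of the gene. Together the 58 members took between 0.162% and 0.280% of the reads in genes. Female DRG 1 was the shallowest library and had the lowest mean correlation with its own group (0.841), and female TG 3 had the lowest among the TG libraries (0.882). In each group the library numbered 3 differed most from the other two, with a chi-square per degree of freedom of 51.5 to 106 against 13.5 to 31.2 between numbers 1 and 2. For some results that turn on these libraries, values without them are also given. The neuron content was checked with 16 sensory neuron markers, whose summed level ran from 7890 to 11940 CPM across the TG libraries and from 8926 to 15120 CPM across the DRG libraries. Of these, Mrgprd and Trpv1, marks of small-diameter neurons, were lower in TG, by log2 fold changes of -0.78 and -0.76 (edgeR adjusted p = 0.0307 and 0.0425). The 8 satellite glia markers summed to 4082 to 7156 CPM in TG and 2696 to 6017 CPM in DRG, and none of them was called. Skeletal muscle markers summed to at most 4.56 CPM and anterior pituitary markers to at most 2.90 CPM. The 10 central neuron markers summed to 130 to 255 CPM in TG and 141 to 219 CPM in DRG. Among them Gad2, Slc32a1, Neurod2 and Neurod6 were at 0 in every library, and Gad1 reached 4.16 CPM. Slc17a7 had means of 116 CPM in TG and 86.6 CPM in DRG, and Camk2a 52.8 and 86.4 CPM. The 8 oligodendrocyte markers summed to 55.4 to 112 CPM in TG and 43.9 to 118 CPM in DRG. Most of this was Aspa, with means of 78.65 CPM in TG and 76.5 CPM in DRG. Mag, the next in level, was also listed as a marker of myelinating Schwann cells. Olig2 had no read, and Mog, Olig1 and Opalin had at most 1, 2 and 4 counts in any library. Hapln2 reached 14 counts and Mobp 56 counts. The part of cell makeup in the results below was not tested.

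The members covered a wide range of levels, and a small number of genes carried most of each class. Of the 58 members, 8 had no read in any library, namely Gabra6, Gabrp, Glra4, Chrna2, Chrna9, Chrnd, Chrne and Chrng. A further 11 never exceeded 27 counts and failed the filter on low counts, which left 39 members to be tested for TG against DRG. The highest levels per kilobase, averaged over the 12 libraries, were those of Grik1 at 103 and Glrb at 101, whose ranges over the libraries overlapped. Lower levels were those of Chrna6 at 32.5, Chrnb2 at 20.2, Chrna7 at 19.0 and Gria4 at 16.8, and these 4 genes also overlapped over the libraries.

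**Figure D1:**
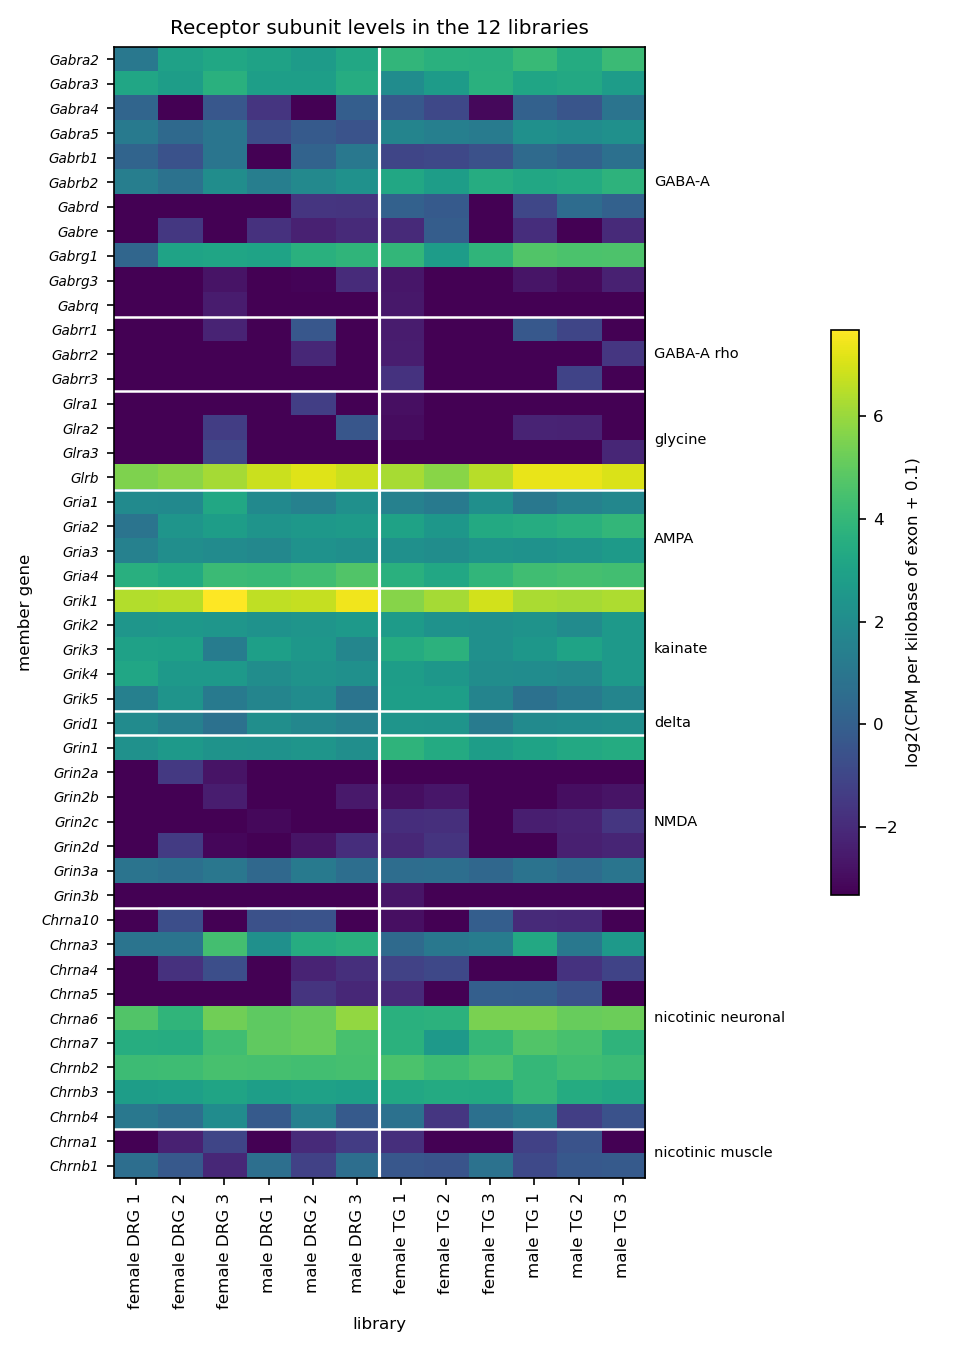
Levels of 46 members with at least 1 count, as log2 of CPM per kilobase of exon plus 0.1, with 1 row per gene grouped by receptor class and 1 column per library, DRG on the left and TG on the right. Glrb and Grik1 are the brightest rows, and the glycine receptor alpha subunits, the rho subunits and Grin2a to Grin2d are near the floor in every library.

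TG was compared with DRG to ask how the receptor makeup of the ganglia differs. At an adjusted p under 0.05 (edgeR quasi-likelihood test, all 12 libraries) 2 of the 39 members tested differed, Gabrb2 and Grin1, and both were higher in TG by more than 2-fold. Over all 14829 genes tested, 0.964% were called, 0.627% as higher in TG and 0.337% as higher in DRG. With the fold threshold the share was 0.769%. No member was called higher in DRG, where 3 members had an unadjusted p under 0.05. At that unadjusted threshold 14 members passed, beside 8.83% of all genes. Of these, 11 were higher in TG and 3 higher in DRG, beside 4.65% and 4.18% of all genes in these directions. DESeq2 called 6 members, among them Gabra5, Gabrb2, Gabrd, Gria2 and Grin1, beside 2.25% of all genes. Of the 11 members higher in TG, Gabrd, Grin2c and Chrna5 passed the filter on low counts through their TG libraries alone. All 6 TG libraries lay above all 6 DRG libraries for Gabrb2, Gabra2, Gabra5, Grin1 and Chrnb3, which is 5 of 39 members beside 0.998% of all genes, and no member showed the opposite order, beside 0.364% of all genes. The median log2 fold change of the tested members was 0.22, beside -0.0078 over all genes. In these bulk samples fewer cells of a type and less RNA per cell cannot be told apart.

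**Figure D2:**
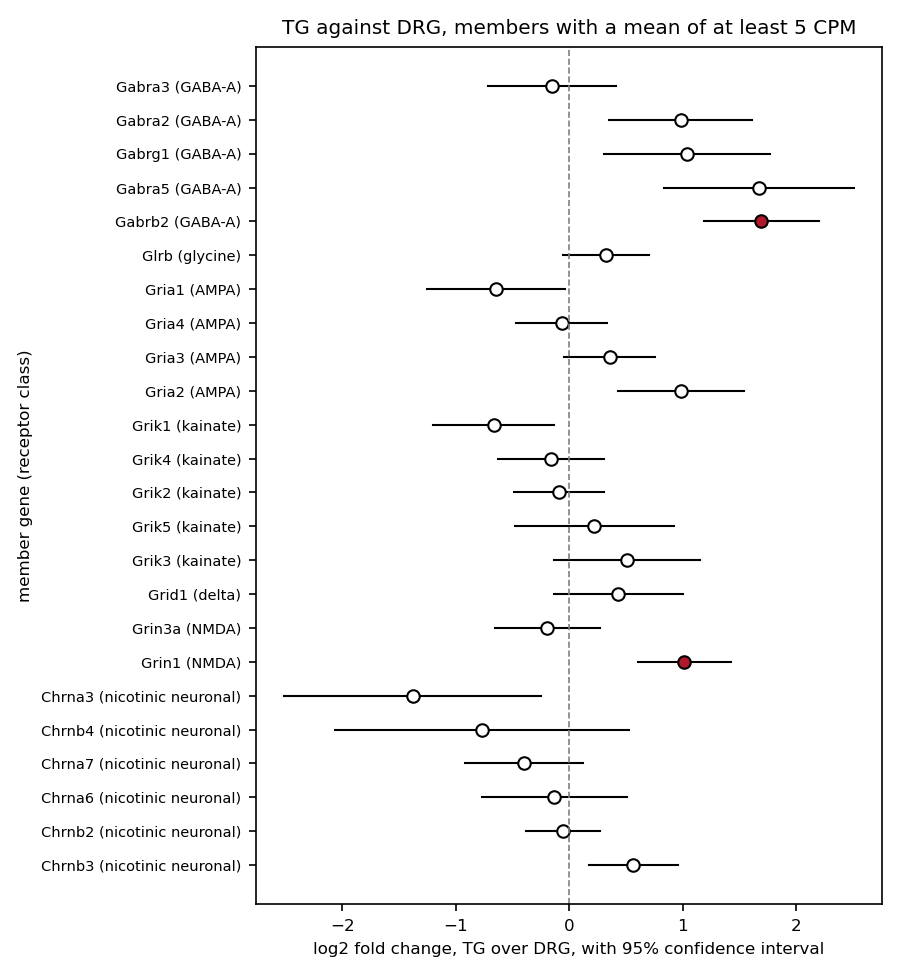
Log2 fold change of TG over DRG with its 95% confidence interval for 24 tested members with a mean of at least 5 CPM, grouped by receptor class. Filled points mark adjusted p under 0.05 and are Gabrb2 at 1.69 and Grin1 at 1.01, while the intervals of Gabra5, Gabra2, Gabrg1, Gria2 and Chrnb3 also lie to the right of 0. Those of Grik1, Gria1 and Chrna3 lie to the left of 0.

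Among the GABA-A subunits, Gabrb2 showed the clearest difference between the ganglia. It encodes the beta2 subunit, which is part of the most common GABA-A receptor of the brain. In DRG its lowest, median and highest values were 16.4, 29.8 and 46.5 CPM, and in TG they were 68.1, 99.3 and 137 CPM. The lowest TG library was thus above the highest DRG library. The means were 101 ± 22.5 CPM in TG against 31.4 ± 11.4 CPM in DRG (SD, n = 6 each), a 3.23-fold difference (log2 fold change 1.69, SE 0.24, adjusted p = 0.000814 by edgeR). It stayed called when any 1 of the 12 libraries was left out, and without female DRG 1 and female TG 3 together its log2 fold change was 1.58 (adjusted p = 0.0025). With the libraries numbered 1 and 2 only it was 1.86 (adjusted p = 0.000293). It was not called in the 6 female libraries alone, at a log2 fold change of 1.73 (adjusted p = 0.407), a fit that called 5 genes in all.

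The gene lies at chr11:42233259-42446092 in mm9, on the plus strand. Its most upstream start in RefSeq is preceded by the 250 bases at chr11:42420190-42420439 of build GRCm38.p6, shown because this is the member with the largest called difference. Capitals mark a TATAAA match, which starts 30 bases before the start site, and a GGGCGG match read on the minus strand.

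Gabrb2: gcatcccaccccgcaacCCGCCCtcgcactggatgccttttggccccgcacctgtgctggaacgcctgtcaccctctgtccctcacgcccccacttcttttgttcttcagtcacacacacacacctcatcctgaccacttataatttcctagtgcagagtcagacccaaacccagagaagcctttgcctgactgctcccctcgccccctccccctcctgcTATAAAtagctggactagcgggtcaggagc

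Both strands were searched for TATAAA, for the GC box core GGGCGG, for the E-box CACGTG and for the cAMP response element TGACGTCA, and none of the matches overlapped. Of 32851 windows of the same length in RefSeq, 12.4% held TATAAA and 32.7% held GGGCGG. The pair of further Gabrb2 starts in RefSeq had no match in their windows.

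Gabrb2 stands on chromosome 11 near Gabra6, which encodes the alpha6 subunit of cerebellar granule cells and had no read.

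Gabra5, which encodes the alpha5 subunit, had low values that did not overlap between the ganglia. It ran from 1.31 through 2.68 to 5.94 CPM in DRG and from 5.99 through 9.17 to 11.8 CPM in TG, so that female DRG 1 and female TG 3 almost met. The difference was 3.17-fold (log2 fold change 1.67, SE 0.40) at an adjusted p of 0.0546. Without female DRG 1 and female TG 3 it was called, at a log2 fold change of 1.81 (adjusted p = 0.0142), and it was called without either one alone (adjusted p = 0.0346 and 0.038). Of the 12 fits with 1 library left out only these 2 called it, and the adjusted p reached 0.202 in the others. With the libraries numbered 1 and 2 only it was not called, at a log2 fold change of 1.70 (adjusted p = 0.0658). In males alone the log2 fold change was 2.78 (adjusted p = 0.0193) and in females alone 0.57 (adjusted p = 0.9999). The difference between the sexes missed the threshold after adjustment (adjusted p = 0.9998 by edgeR, unadjusted p 0.0114). The exons of Gabra5 share 118 bases with Gm9962 on the opposite strand, and whether the counting used strand is not stated.

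The cluster on chromosome 5 holds Gabrg1, Gabra2, Gabra4 and Gabrb1. Gabra2, which encodes the alpha2 subunit, ran from 4.76 through 18.9 to 22.6 CPM in DRG and from 25.5 through 32.9 to 43.4 CPM in TG, without overlap. Gabrg1, which encodes the gamma1 subunit, ran from 5.47 through 40.3 to 69.6 CPM in DRG and from 31.3 through 93.8 to 122 CPM in TG. Their log2 fold changes were 0.98 (SE 0.30) and 1.04 (SE 0.35), with adjusted p of 0.186 and 0.251. The lowest value of each was that of female DRG 1, and without that library the log2 fold changes were 0.77 and 0.80 (adjusted p = 0.153 and 0.154). Gabra4 and Gabrb1 did not exceed 79 counts in any library.

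Other GABA-A genes had intervals that included 0 or too few reads to order. Gabra3, which encodes the alpha3 subunit, had means of 31.7 ± 11.6 CPM in TG against 35.2 ± 9.5 CPM in DRG (log2 fold change -0.15, 95% interval -0.71 to 0.41). Gabrd, which encodes the delta subunit of extrasynaptic receptors, had 32, 27, 0, 13, 57 and 28 counts in TG and 0, 0, 0, 0, 7 and 8 counts in DRG, with an adjusted p of 0.229. It reached an adjusted p under 0.05 with DESeq2. The 3 rho genes, whose products form the GABA receptors best known from retina, had summed counts of 0 to 22 per library and were not tested.

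Summed over the 16 GABA-A genes, the level per kilobase was 160 ± 38.8 in TG and 97.7 ± 35.6 in DRG, a ratio of 1.64. The class also had a different makeup. Gabrb2 was 6.47% ± 0.855 of the class sum in TG and 3.28% ± 0.667 in DRG. The share of Gabra3 was 5.13% ± 1.71 in TG but 9.74% ± 2.98 in DRG. For both genes the shares in the 6 TG libraries did not overlap those in the 6 DRG libraries. Shares of a sum are tied to each other, so these are given as a description.

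The glycine receptor class consisted almost entirely of Glrb, the beta subunit, which binds the scaffold gephyrin and does not form a channel without an alpha subunit. Glrb had 1318 to 7763 counts per library, while Glra1, Glra2, Glra3 and Glra4 together had 0 to 33 counts. Glrb was at least 99.04% of the class sum per kilobase in each library. Of the alpha genes, Glra2 had the most reads, with 27 counts in male DRG 3, 11 in female DRG 3 and at most 5 elsewhere. Glrb ran from 157 through 305 to 472 CPM in DRG and from 176 through 374 to 536 CPM in TG, and the groups overlapped widely. Its log2 fold change was 0.32 (SE 0.18, adjusted p = 0.673). The spread within each ganglion followed the sex of the libraries and is described with the sexes.

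All 4 AMPA receptor genes were present, led by Gria4. Gria4 had 103 ± 29.7 CPM in TG against 107 ± 34.8 CPM in DRG, with a log2 fold change of -0.07 and a 95% interval of -0.47 to 0.33. Gria2, whose product keeps AMPA receptors nearly closed to calcium, ran from 12.2 through 38.3 to 47.1 CPM in DRG and from 38.5 through 74.0 to 106 CPM in TG. Only female TG 2 among the TG libraries fell within the DRG range. The difference was 1.98-fold (log2 fold change 0.98, SE 0.26, adjusted p = 0.0996), and DESeq2 gave an adjusted p of 0.0287. Female DRG 1 held the low DRG value, and without female DRG 1 and female TG 3 the log2 fold change was 0.68 (adjusted p = 0.0849). It was called without female DRG 3 (1.18, adjusted p = 0.0289) and with the libraries numbered 1 and 2 only (1.04, adjusted p = 0.0446). In the latter fit its unadjusted edgeR p was 0.00226, against 0.00151 with all libraries, so the call came with more small p over all genes.

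Gria1 had the opposite sign. It ran from 16.6 through 22.5 to 58.2 CPM in DRG and from 12.3 through 16.5 to 26.4 CPM in TG, the highest value being that of female DRG 3. The log2 fold change was -0.65 (SE 0.29, adjusted p = 0.520). Gria3 was at 49.2 ± 7.49 CPM in TG against 38.3 ± 7.22 CPM in DRG, with an interval of -0.04 to 0.76. As a share of the AMPA sum, Gria2 held 25.7% to 33.6% in TG but 8.55% to 22.4% in DRG, so the ranges did not meet. Gria1 held 5.46% to 12.6% in TG against 8.33% to 25.1% in DRG. The class sum itself was 34.8 ± 8.88 and 30.8 ± 8.11 per kilobase.

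In the kainate class Grik1, which encodes the GluK1 subunit, was 77.1% ± 9.52 of the sum in TG and 84.8% ± 6.42 in DRG. It ran from 284 through 341 to 681 CPM in DRG and from 170 through 252 to 407 CPM in TG. Female DRG 3 and male DRG 3 were the highest of their ganglion, and female TG 3 the highest of TG. The log2 fold change was -0.67 (SE 0.25, adjusted p = 0.372). With the libraries numbered 1 and 2 only it was -0.47 and was called (adjusted p = 0.0359), as it was without female DRG 1 and female TG 3, at -0.98 (adjusted p = 0.0356). In the former fit more of all genes had a small p, as given for Gria2. Of the other kainate genes, Grik3 had 72.6 ± 31.0 CPM in TG against 50.2 ± 20.7 CPM in DRG, with an interval of the log2 fold change from -0.13 to 1.15. Grik2 had 42 ± 7.80 and 44.8 ± 3.80 CPM, and Grik4 had 29.6 ± 7.89 and 33.8 ± 10.4 CPM. Grik5, which encodes a subunit that needs GluK1, GluK2 or GluK3 to form a channel, had 15.5 ± 9.39 and 12 ± 4.77 CPM. The sum of the class was 102 ± 19.4 per kilobase in TG and 146 ± 46.7 in DRG, a ratio of 0.696, and the libraries overlapped.

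The delta class, whose members organize synapses and do not open to glutamate as AMPA receptors do, was low. Grid1 had 25.0 ± 6.48 CPM in TG against 18.7 ± 5.65 CPM in DRG (log2 fold change 0.43, 95% interval -0.14 to 0.997).

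In the NMDA class Grin1, which encodes the obligatory GluN1 subunit, was higher in TG. It had 45.3, 59.5 and 47.6 CPM in the female DRG libraries, 46.8, 50.1 and 40.4 CPM in the male DRG libraries, 138, 101 and 66.7 CPM in the female TG libraries and 78.8, 96.0 and 104 CPM in the male TG libraries. The DRG libraries lay close together, and the lowest TG library, female TG 3, was above all of them. The difference was 2.02-fold (log2 fold change 1.01, SE 0.20, adjusted p = 0.0132). It lost its call without female TG 1, with an adjusted p of 0.0635 and a log2 fold change of 0.87, and kept it without female DRG 1 and female TG 3 together (adjusted p = 0.00346) and with the libraries numbered 1 and 2 only (adjusted p = 0.00287). Within females alone the adjusted p was 0.860 and within males alone 0.0989, at log2 fold changes of 1.02 and 1.03.

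The exons of Grin1 share 1307 bases with E130003G02Rik on the opposite strand, which had at most 1 count in any library. Whether the counting used strand is not stated, so that count does not show how many reads in the shared bases came from either gene. Grin1 lies at chr2:25146701-25174707 in mm9, on the minus strand. The 250 bases before its RefSeq start, chr2:25319188-25319437 of GRCm38.p6 read along the minus strand, are shown because it was the other member called. Capitals mark a pair of CACGTG matches, 181 and 85 bases before the start site.

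Grin1: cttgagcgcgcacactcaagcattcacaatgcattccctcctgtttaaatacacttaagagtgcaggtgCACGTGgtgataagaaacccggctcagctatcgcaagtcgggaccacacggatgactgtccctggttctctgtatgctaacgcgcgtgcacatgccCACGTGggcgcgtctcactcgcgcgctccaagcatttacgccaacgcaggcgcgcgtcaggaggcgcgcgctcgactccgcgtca

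Of the same 32851 windows, 6.0% held CACGTG and 1.5% held TGACGTCA, which was in neither promoter. The Grin1 window held 27 CpG dinucleotides and the Gabrb2 window 8, beside a median of 6 over all windows.

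The partners of Grin1 were scarce. Grin2a, Grin2b, Grin2c and Grin2d, which encode the glutamate-binding GluN2 subunits, had together 0 to 33 counts per library. Grin2c had 10, 11, 0, 5, 8 and 12 counts in TG and 1 count in all of DRG, and its adjusted p was 0.383. Grin3a, which encodes the glycine-binding GluN3A subunit, had 23.6 ± 3.92 CPM in TG against 26.9 ± 5.71 CPM in DRG (log2 fold change -0.19, 95% interval -0.66 to 0.27). Grin3b had 2 counts in 1 library. Grin1 made up 81.7% to 88.7% of the NMDA sum in TG and 69.3% to 79.7% in DRG. Its exon union of 9700 bases is longer than its longest coding transcript of 4276 bases, so that its level was 7.51 per kilobase on the former length and 17.0 on the latter.

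**Figure D3:**
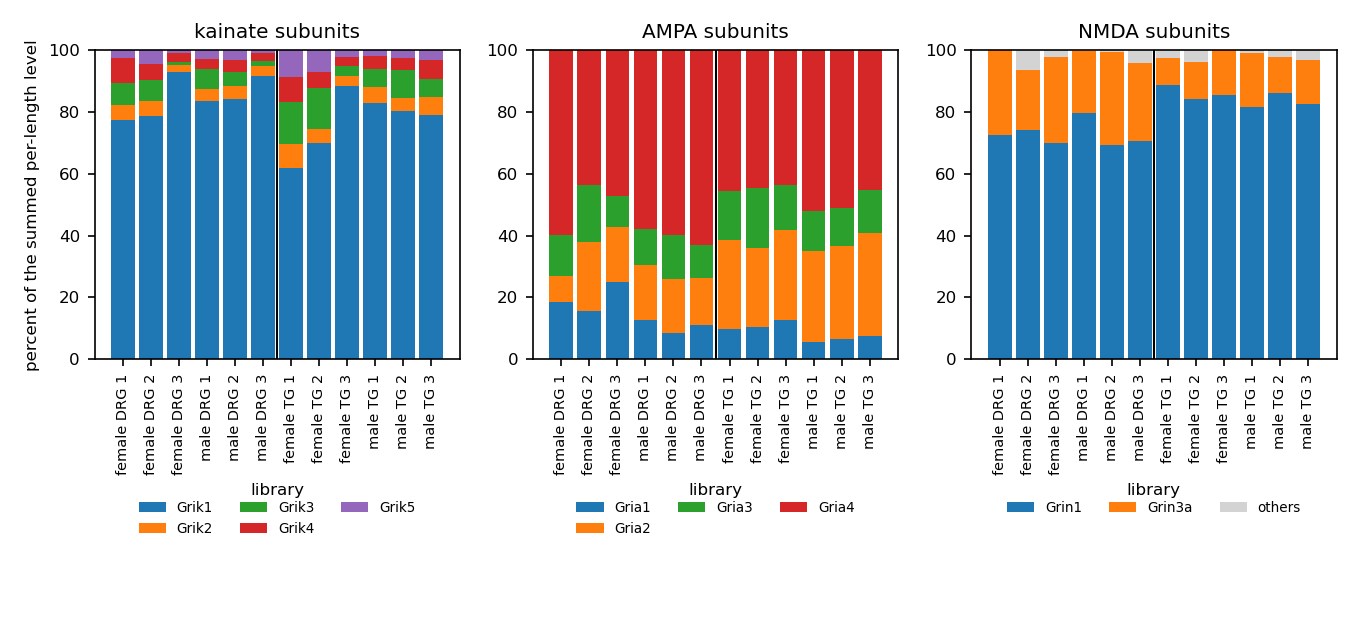
Share of each subunit in the summed level per kilobase of its class (percent), with 1 stacked bar per library, DRG to the left and TG to the right of the black line, for kainate, AMPA and NMDA subunits. Gria2 and Grin1 take a larger share in each TG library than in any DRG library, and Grin3a a smaller share, while the shares of Grik1 overlap.

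**Figure D4:**
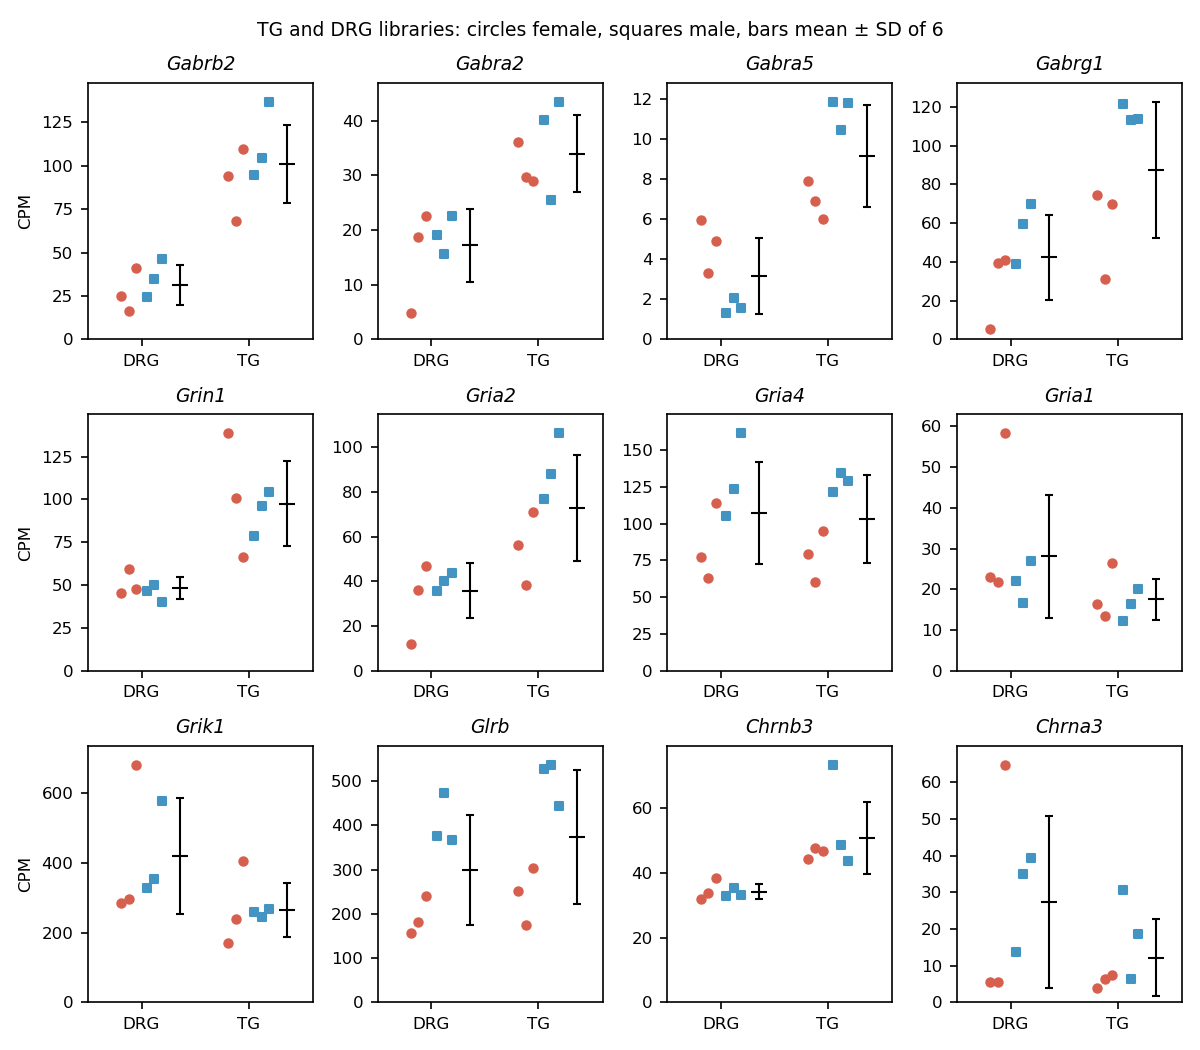
CPM of 12 members in each library, DRG and TG side by side, with circles for female and squares for male libraries and a bar for the mean ± SD of 6. Gabrb2, Gabra2, Gabra5, Grin1 and Chrnb3 do not overlap between the ganglia, Gabrg1 and Gria2 overlap in a few libraries, and Gria4 and Glrb cover similar ranges.

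Among the neuronal nicotinic genes Chrna6, Chrnb2, Chrna7 and Chrnb3 held most of the level. Chrna6 and Chrnb3, which encode the alpha6 and beta3 subunits, lie side by side on chromosome 8. Chrna6 ran from 42.8 through 94.6 to 171 CPM in DRG and from 36.9 through 104 to 129 CPM in TG, with a log2 fold change of -0.13 and a 95% interval of -0.77 to 0.51. Chrnb3 had a narrow range in DRG, from 31.9 through 33.5 to 38.4 CPM, and lay above it in TG, from 43.8 through 47.3 to 73.5 CPM. Its log2 fold change was 0.56 (SE 0.19, adjusted p = 0.244). With the libraries numbered 1 and 2 only it was 0.66 (adjusted p = 0.0494), in a fit where more of all genes had a small p. Chrnb2, which encodes the beta2 subunit, had 107 ± 16 CPM in TG against 110 ± 7.75 CPM in DRG, with an interval of -0.38 to 0.27. Chrna7, which forms receptors of a single subunit kind, had 73.1 ± 32.2 CPM in TG against 99.3 ± 44.9 CPM in DRG (log2 fold change -0.40, 95% interval -0.92 to 0.12).

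Chrna5, Chrna3 and Chrnb4, the subunits best known from autonomic ganglia, stand together on chromosome 9. Chrna3 varied more than any other abundant nicotinic gene. It had 5.47, 5.51 and 64.8 CPM in the female DRG libraries, 13.8, 35.0 and 39.5 CPM in the male DRG libraries, 4.05, 6.35 and 7.41 CPM in the female TG libraries and 30.6, 6.28 and 18.8 CPM in the male TG libraries. Female DRG 3 was far above the other female DRG libraries. The log2 fold change of TG over DRG was -1.38 (SE 0.54, adjusted p = 0.397), and without female DRG 3 it was -0.28 (adjusted p = 0.883). Chrnb4 had 3.85 ± 2.93 and 6.85 ± 4.33 CPM, and Chrna5 at most 34 counts. The sympathetic neuron markers summed to at most 7.76 CPM in TG and 4.27 CPM in DRG.

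The nicotinic subunits of muscle were near the floor. Chrnb1 had 4 to 53 counts per library and Chrna1 had 0 to 38, while Chrnd, Chrne and Chrng had no read. Their summed level was 1.0 ± 0.393 per kilobase in TG and 1.09 ± 0.549 in DRG.

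Genes that make, carry or hold the transmitters and receptors were taken from 11 lists. Of 83 such genes tested, 2 were called, both higher in TG, beside 0.627% of all genes in that direction, and none was called lower. Gabbr2, which encodes a subunit of the metabotropic GABA-B receptor, had 92.9 ± 24.5 CPM in TG against 52.4 ± 8.79 CPM in DRG (log2 fold change 0.81, adjusted p = 0.0471). Its partner Gabbr1 had 429 ± 77.5 and 435 ± 45.5 CPM. Dlg2, which encodes the synaptic scaffold PSD-93, had 157 ± 23.0 CPM in TG against 83.5 ± 16.8 CPM in DRG (log2 fold change 0.90, adjusted p = 0.0177), and its groups did not overlap. None of the genes with the highest level per kilobase in its list was called. The chloride importer gene Slc12a2 had 343 ± 62.6 CPM in TG against 432 ± 119 CPM in DRG, while the exporter gene Slc12a5 did not exceed 2.29 CPM. Nsf, Glul, Gabarapl1, Abat, Cpt1c, Grm7, Ache, Tmem35 and Chrm3 led the remaining lists.

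The study compared females with males in each ganglion, and these comparisons were repeated for the members with its criteria of a fold change above 2 and an unadjusted p under 0.05, with CPM above 1 in the higher sex. In TG 2 of 35 members tested met them, beside 7.41% of all genes. Grik5 was higher in females, as were 5.15% of all genes, and Chrna3 was higher in males, as were 2.26%. Chrna3 did not meet the criteria without male TG 1, at a log2 fold change of -1.03 and an unadjusted p of 0.0958. With the libraries numbered 1 and 2 only its log2 fold change was -1.81 (edgeR adjusted p = 0.0196). Without female TG 3 it was -1.83 (adjusted p = 0.0406). The unadjusted p of Chrna3 in these smaller fits, 0.00699 and 0.00856, was near the 0.0114 of the full fit, where the adjusted p was 0.166. Many more of all genes thus had a small p in the smaller fits. The share called there is not given here, so these adjusted p do not show how a member stands among all genes. In DRG 2 of 32 members met the criteria, Chrna7 and Glrb, both higher in males, beside 4.97% of all genes in either direction, 2.96% higher in males and 2.01% higher in females. Neither met them without female DRG 1, without male DRG 2 or without scaling factors, since their fold change was then under 2. With all 6 libraries of a ganglion, no member reached an adjusted p under 0.05 in TG or in DRG. In each ganglion 5 genes did, namely Xist and the Y-linked Ddx3y, Eif2s3y, Kdm5d and Uty. They are 0.0357% of the genes tested in TG and 0.0358% in DRG. With DESeq2, which called 5.38% of all genes in TG and 2.29% in DRG, Glrb and Gabrg1 passed in TG (adjusted p = 0.00619 and 0.0458) and Glrb and Chrna7 in DRG (adjusted p = 0.0109 and 0.0291).

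Glrb was lower in females in both ganglia. It had 157, 180.5 and 241 CPM in the female DRG libraries and 376, 472 and 368 CPM in the male ones. In TG it had 252, 176 and 304 CPM in females and 527, 536 and 443 CPM in males. In neither ganglion did the sexes overlap. Of the tested members, 7 lay wholly above the females in male TG, beside 12.6% of all genes, and none below, beside 11.2%. In DRG, 2 members lay wholly above in males (Glrb and Chrna7, beside 9.63% of all genes) and 2 in females (Gabra5 and Grik4, beside 7.85%). The libraries of the ganglia are separate measurements, though whether they share animals is not stated. The log2 fold change of females over males was -1.06 in DRG (SE 0.27, adjusted p = 0.307) and -0.997 in TG (SE 0.24, adjusted p = 0.154). In DRG it was -0.94 without female DRG 1, -0.96 without male DRG 2 and -0.90 without scaling factors. With the libraries numbered 1 and 2 only it was -1.29 in DRG and -1.31 in TG. The edgeR adjusted p there, 0.0064 and 5.0e-05, came with many more small p over all genes than in the full fits. In TG the log2 fold change was -1.23 without female TG 3 (adjusted p = 0.00667, with the same limit) and -0.85 without female TG 2 (adjusted p = 0.508). Corrected for GC content and exon length of genes, it was -0.85 in DRG and -0.50 in TG.

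Chrna7 had 51.8, 51.3 and 88.5 CPM in female DRG and 145, 157 and 102 CPM in male DRG, without overlap. In TG it had 58.7, 26.5 and 72.1 CPM in females and 117, 101 and 63.5 CPM in males, where 1 female library was above the lowest male library. The log2 fold changes were -1.07 (SE 0.31) in DRG and -0.80 (SE 0.36) in TG, with adjusted p of 0.307 and 0.236. In DRG the log2 fold change was -0.94 without female DRG 1, -0.93 without female DRG 2, -0.96 without male DRG 2 and -0.91 without scaling factors, each short of 2-fold. With the libraries numbered 1 and 2 only it was -1.51 in DRG and -1.35 in TG. The edgeR adjusted p there, 0.00618 and 0.00155, again came with many more small p over all genes. In TG the log2 fold change was -1.14 without female TG 3 (adjusted p = 0.0391, with the same limit) and -0.52 without female TG 2 (adjusted p = 0.590).

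Grik5 had 27.1, 27.5 and 11.6 CPM in female TG and 6.19, 8.49 and 12 CPM in male TG, so that female TG 3 lay among the males. Its log2 fold change of 1.36 (SE 0.42, adjusted p = 0.158) became 0.48 with the correction for GC content and length. Without female TG 3 it was 1.62 (adjusted p = 0.00856), in a fit where many more of all genes had a small p. In the same ganglion 7 members, among them Gria4, Gria2, Gabrg1, Glrb, Chrna7 and Chrna3, had an unadjusted p under 0.05 and were higher in males, beside 9.79% of all genes, and of those named Gabrg1, Gria2 and Chrna7 lost that p with the same correction. Reads outside annotated genes were 43.5% to 49.1% in female TG and 37.6% to 47.9% in male TG, and 46.4% to 50.4% in female DRG and 38.2% to 42.6% in male DRG. The summed levels of the marker genes given next overlapped between the sexes, except those of macrophage markers in TG. The 16 sensory neuron markers summed to 7890, 8021 and 11471 CPM in female TG against 11940, 11479 and 8496 CPM in male TG, and to 8926, 9090 and 14704 CPM in female DRG against 13912, 15120 and 13081 CPM in male DRG. The 8 endothelial markers summed to 440 to 704 CPM in female TG, 356 to 492 CPM in male TG, 361 to 726 CPM in female DRG and 226 to 378 CPM in male DRG. The 8 macrophage markers summed to 235 to 457, 99.04 to 228, 140 to 328 and 117 to 157 CPM in the same order, and the 8 fibroblast markers to 1071 to 1713, 679 to 1436, 1477 to 2243 and 1069 to 1637 CPM. The part of reads outside genes and of cell makeup in the differences between the sexes was not tested.

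**Figure D5:**
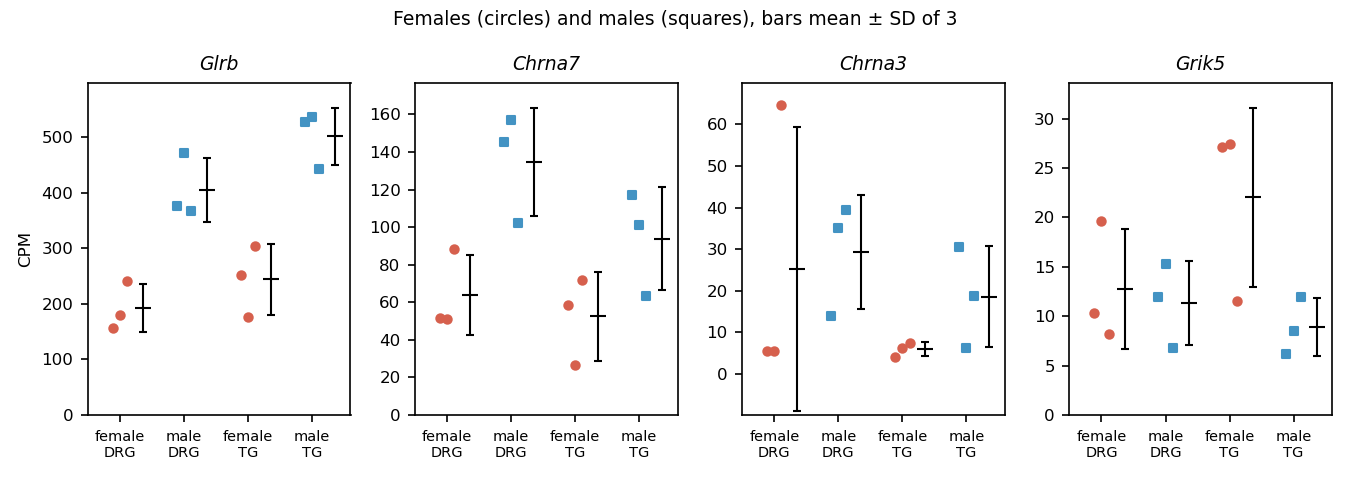
CPM of Glrb, Chrna7, Chrna3 and Grik5 in the 12 libraries, with circles for female and squares for male libraries and a bar for the mean ± SD of 3. The sexes do not overlap for Glrb in either ganglion or for Chrna7 in DRG, while female DRG 3 at 64.8 CPM widens the female DRG bar of Chrna3.

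The sex effect was then compared between the ganglia in one model of all 12 libraries. No member and no other gene had an adjusted p under 0.05 (edgeR, smallest adjusted p = 0.9998), and DESeq2 gave 0 as well. At an unadjusted p under 0.05 there were 1 member of 39, Gabra5, and 292 of 14829 genes, or 1.97%.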

How the data were processed

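RNA had been sequenced from Percoll fractions of mouse DRG and TG, with 12 libraries in 4 groups of 3, and the groups and replicate numbers were taken from the sample titles. Per the labels and the methods of the study, the authors depleted ribosomal RNA from total RNA, made dUTP stranded libraries, aligned short single reads to mm9 with TopHat2 and counted them with HTSeq. Tool versions, the gene annotation and the strand setting of the counting are not given in the sources used here. The deposited values are raw counts by gene symbol, which the authors did not normalize, and the summary lines at their end were left out of all totals. HTSeq discards reads with several alignments, which undercounts near-identical genes. If strand was ignored, reads of overlapping opposite-strand genes cannot be told apart.

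Counts were tested with edgeR 4.0.16 in R 4.3.3 (filterByExpr, TMM factors, quasi-likelihood F-test, Benjamini-Hochberg over all genes tested). TG against DRG and the interaction with sex were contrasts of a model of all 12 libraries with a mean per group, and the sexes were compared within the 6 libraries of a ganglion. CPM above 1 stood in for the RPKM criterion of the study. Exon lengths and mm9 positions came from GENCODE for NCBIM37, which matched all 58 members, and promoter sequences from RefSeq (GRCm38.p6), which held 41 of them. Errors are SD over libraries unless given as SE, and no library was a duplicate of another. Counts were also simulated for the 14829 genes of the TG against DRG fit, with the same common dispersion for every gene. There 10.2% of 2-fold and 81.0% of 4-fold changes were recovered, with 4 false calls. The spread of the real genes differed, with an SE of 0.16 for Chrnb2 and 0.54 for Chrna3, so these shares do not give the power for a single member.

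The members and gene lists were chosen with earlier results of these data known. Values are given in the text by a rule. It takes members with adjusted p under 0.05, the 2 highest members of each class per kilobase, the 3 members per direction with the smallest p, members meeting the study criteria in a sex comparison, and, of the related genes, those called and the highest of each list. Some members that it names are counted in totals but not reported here. Other members are given by values, and they were chosen after their values were seen. Alternatives were other scaling, DESeq2 1.42.0, other filters, an offset for GC content and exon length, a replicate block, other thresholds and subsets of libraries. Symbols Ncmap, Insyn1, Cnih1 and Tmem35a were not in the tables. Replicate numbers were not taken to pair TG with DRG libraries, since the labels do not say so. Shallow libraries and amplified reads without molecular identifiers limit the low genes, and 3 counts as a floor covers counting error only.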

Additional observations from a re-analysis of the deposited data

Results flagged for a closer look

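Of 56 checks for a library far from the others of its ganglion, 1 was positive, and chance gives about 1 in 20. Gria2 was at 12.2 CPM in female DRG 1, against 35.8 to 47.1 CPM in the other 5 DRG libraries, so that the gap was 0.792 of the whole range. Female DRG 1 was also the library with the lowest total count, 7511765, and with the most reads outside genes, 50.4%. Whether this moved Gria2 was not tested.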

How the results depend on the processing

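For TG against DRG at adjusted p under 0.05, where 2 members were called, the count was 4 without scaling factors, 6 with DESeq2, 4 without a filter, 7 with the GC and length offset, 7 with libraries numbered 1 and 2 only, 0 in females only, 4 without female DRG 1 and female TG 3 (an alternative chosen after seeing the data), and 1 (without female TG 1) to 4 (without female DRG 3) with 1 library left out. With the fold threshold added it was 1 with DESeq2 size factors, 4 without scaling factors, 4 with DESeq2, 6 with the offset, 4 with numbers 1 and 2 only, 0 in females only, and 1 (without female TG 1 or male TG 3) to 3 with 1 library left out. Calls over all genes, without the fold threshold, also rose. They were 143 in the main fit, 171 without scaling factors, 333 with DESeq2, 218 without a filter and 215 with the offset. With numbers 1 and 2 only more of all genes had a small p as well. For subsets of libraries, and for the sexes below, the share of all genes is not given here, so those counts do not show a change particular to the members. A replicate block gave 7 members (among them Gabra2, Gabrb2, Gabrg1, Gria2 and Grin1 higher and Grik1 lower in TG) of 562 genes, and 5 with the fold threshold. The block with the offset gave 9 and 5. Whether same-numbered TG and DRG libraries share animals or a preparation is not stated. Correlations of their deviations ran from 0.0277 to 0.216, over 0.1 in 4 of 6 pairs, and 8 of 12 libraries correlated best with their own number. Gabrb2 was called in 23 and Grin1 in 21 of 24 alternatives. For the sexes in TG, where 2 members met the criteria, there were 4 with DESeq2, 1 with the offset, 0 with the replicate block and the offset, 7 with numbers 1 and 2 only, 8 at 1.5-fold, and 1 (without male TG 1) to 8 (without female TG 3) with 1 library left out, 4 without female TG 1 or male TG 3. In DRG there were 0 without scaling factors, 1 with the offset, and 0 (without female DRG 1 or male DRG 2) to 5 (without female DRG 3) with 1 library left out, 1 without female DRG 2. The sex effect between ganglia gave 0 members under each alternative run. Without scaling factors the median female over male log2 fold change of all genes was 0.16 rather than 0.05 in TG, and in DRG it was 0.19 rather than 0.02.

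Of 16 members followed through all settings and 8 others with a mean of at least 5 CPM, those whose fold change changed sign were uncalled. Among the 8, Gabra3 was 0.00024 in males only and 0.0020 without female TG 1, and Grik4 was 0.0086 in males only and 0.041 without female DRG 1 and female TG 3. The log2 fold change of Chrnb2 was 0.15 in females only. That of Grik5 was -0.051 with the offset, -0.0052 with the block and offset, -0.011 with numbers 1 and 2 only and -0.34 in males only. That of Grin3a was 0.0033 in males only. Gria4 was 0.00090 with the block and offset and 0.079 with numbers 1 and 2 only. With 1 library left out, Chrna6 ran from -0.55 to 0.058 and Gria4 from -0.15 to 0.069. The ratios of class sums kept their direction in each alternative run. The cause of these changes was not tested.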
